A study of Mus musculus with 4 samples.

Results

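Hox genes encode the homeodomain transcription factors that give cells their position along the body axis, and in the mouse they lie in 4 clusters, HoxA to HoxD. The 39 genes described here were taken from the 52636 gene identifiers of the count files by their symbol, Hox followed by a cluster letter and a paralog number, and all 39 were found. The antisense and opposite-strand genes of the clusters were left out of this set and are given separately. Counts were deposited for mouse kidney cells purified by fluorescence-activated sorting, as 2 control libraries and 2 labelled Brg1-cKO, where cKO commonly stands for conditional knockout. The gene behind Brg1 is Smarca4, which encodes an ATPase of the SWI/SNF complexes that move nucleosomes. Libraries were made from 3000 cells each. The sources used here name no marker for the sort, no age, no Cre or floxed allele and no genotype of the controls. It is not stated whether different animals gave the libraries of a group, so the p-values speak only of variation among these 4 libraries, and that variation may be technical.

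Within each cluster the genes stand in the order of their paralog numbers, from group 1 at the anterior end to group 13 at the posterior end, and genes of the same number in different clusters are paralogs with closely related homeodomains. Anterior genes are expressed earlier and further towards the head, and posterior genes later and nearer the tail. The metanephric kidney forms at the level of the posterior genes. The group 11 paralogs Hoxa11, Hoxc11 and Hoxd11 are needed together for it, and act with Eya1 and Pax2 on Six2 and Gdnf in nephron progenitors. The group 10 genes are known for their role in the renal stroma, and Hoxb7 is widely used as a gene of the ureteric bud. Polycomb complexes keep Hox clusters silent and Trithorax and SWI/SNF complexes keep them active.

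On mm10, the HoxA genes span positions 52155590 to 52260880 of chromosome 6 and the HoxB genes 96194316 to 96368256 of chromosome 11. The HoxC genes span 102921103 to 103036852 of chromosome 15 and the HoxD genes 74668310 to 74765142 of chromosome 2. HoxA holds 11 genes, HoxB 10, HoxC 9 and HoxD 9, all annotated as protein-coding. In the annotation, 16 of the 39 genes share exon bases with another gene, on the same or the opposite strand. Reads in shared bases can go to either gene or to neither. The genes with the smallest part of their exons to themselves were Hoxd3 (37.2%), Hoxb3 (47.1%), Hoxd4 (47.7%) and Hoxa11 (65.0%). Values of these 4 genes are therefore uncertain.

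The Brg1-cKO libraries had 14645665 and 10922272 counts on genes, against 35411905 and 37999342 in control. Of reads with a unique alignment, 53.4% ± 5.47 (SD, n = 2) fell outside genes in Brg1-cKO and 15.9% ± 0.775 in control. The targeted gene Smarca4 was at 760.1 and 691 CPM (read count over scaled library size) in Brg1-cKO and at 898 and 937 CPM in control. That is a log2 fold change of -0.34 (SE 0.09), and counts over the whole gene check the labels only in part. In both Brg1-cKO libraries Xist stood above, and Ddx3y of the Y chromosome below, either control, so sex and genotype cannot be told apart here. The 11 nephron progenitor markers were all detected in every library.

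In the control libraries the Hox profile was that of central and posterior paralogs. Levels of different genes are compared here per length, as CPM per kb of annotated exon. That length takes in all annotated exons of a gene, from 874 bases for Hoxa6 to 6014 for Hoxa3. The transcripts present can be shorter, which the SD does not cover, so the order of genes holds only for these lengths. Hoxa5 led at 47.1 ± 1.14 CPM per kb (SD, n = 2), followed by Hoxb6 at 46.2 ± 1.94, Hoxb9 at 45.3 ± 0.945, Hoxc10 at 43.4 ± 0.402 and Hoxa10 at 41.6 ± 2.78. Hoxd10, at 32.9 ± 1.30 CPM per kb, was the next and lay below these 5 by more than their spread. Within these 5, the first 3 lay within their spread of one another, as did Hoxc10 and Hoxa10. Among the group 11 genes, Hoxd11 was at 25.3 ± 2.61 CPM per kb, Hoxa11 at 14.8 ± 0.385 and Hoxc11 at 7.14 ± 0.140, and their order held in both controls. Both ends of the series were low. Hoxb1 and Hoxd1 of group 1 were at 1.18 ± 0.202 and 0.748 ± 0.407 CPM per kb. Group 13 genes, which pattern the hindgut, genital tubercle and digits, were at 0.709 ± 0.0161 CPM per kb for Hoxd13 and below that for Hoxa13 and Hoxc13. Hoxb13 and Hoxc12 were listed at 0 in all 4 libraries, where a floor of 3 reads stands at 0.0778 to 0.280 CPM depending on the library.

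**Figure D1:**
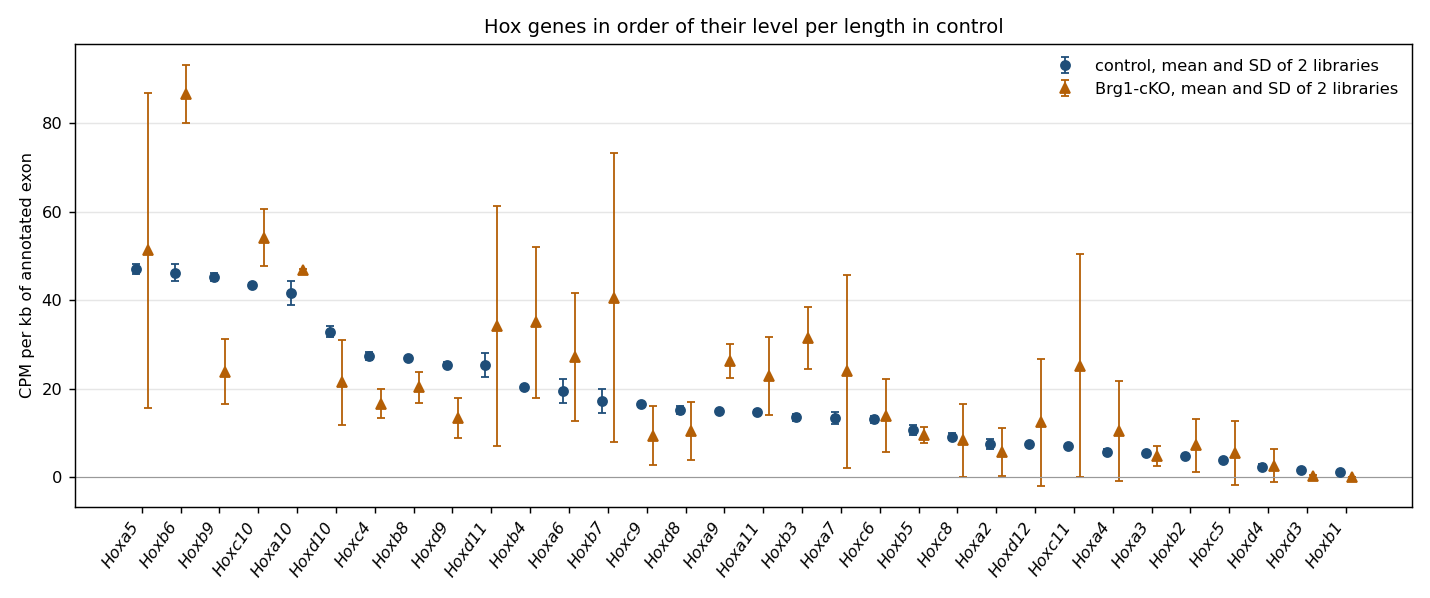
Level per length (CPM per kb of annotated exon, linear axis) of Hox genes at 1 CPM per kb or more in control, ordered by that level. Circles and triangles are the mean of 2 control and 2 Brg1-cKO libraries, and bars are 1 SD; the bars are short in control and long in Brg1-cKO for most genes, as for Hoxa5, Hoxd11 and Hoxc11.

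Setting Brg1-cKO against control asks where the Hox genes stood when Brg1 was targeted. No Hox gene passed the test over all genes. Of the 39 genes, 35 passed the filter on low counts, and 0 of them had an adjusted p under 0.05 in edgeR's quasi-likelihood test, as did 0.0% of all 18172 genes tested. Their smallest adjusted p came to 0.166. Without adjustment, 3 Hox genes were higher in Brg1-cKO at p under 0.05, where 5.44% of all tested genes were, and 2 lower, where 12.9% of all tested genes were. The higher ones were Hoxb3, Hoxb6 and Hoxa9, and the lower ones Hoxb9 and Hoxd13. DESeq2 called 3 Hox genes, Hoxa9, Hoxb3 and Hoxb6, all higher. Of the 16058 genes to which it gave an adjusted p, 3.99% were called higher and 2.07% lower. The likelihood ratio test called 4, of which Hoxb3 and Hoxb6 were higher (3.03% of all genes) and Hoxb1 and Hoxd13 lower (10.6% of all genes). With the replicate number as a block, 0 Hox genes were called, among 0.616% of all genes higher and 0.242% lower. With limma-voom 0 were called, among 0.336% higher and 1.46% lower, and with a variance per group 0, among 0.578% higher and 0.16% lower. In bulk counts such as these, fewer cells of a type and less RNA per cell cannot be told apart.

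**Figure D2:**
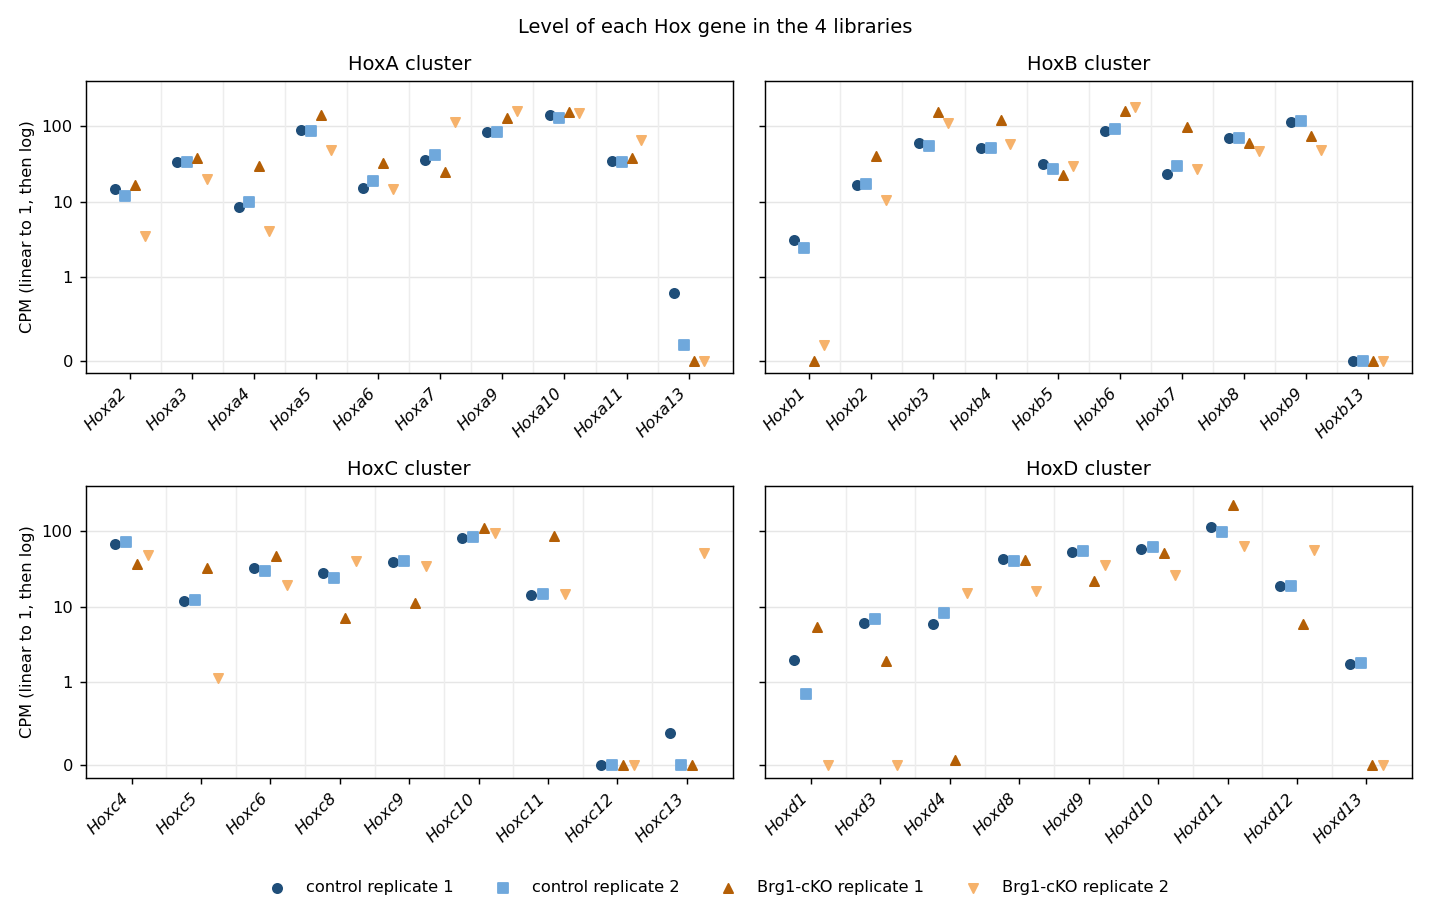
CPM of the Hox genes in each library, in 4 panels by cluster with genes in order of paralog number; the axis is linear up to 1 CPM and logarithmic above. The control points nearly coincide for most genes, while the Brg1-cKO points lie apart, on the same side of control for Hoxb6 and Hoxa9 and on opposite sides for Hoxc8 and Hoxd12.

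Both Brg1-cKO libraries lay below both controls for 9 of the 35 tested Hox genes, a placing found for 34.5% of all tested genes. Both lay above for 8, against 17.5% of all tested genes. For a further 15 the Brg1-cKO libraries lay on opposite sides of both controls, which was so for 36.8% of all tested genes. The shares among Hox genes, 25.7% lower, 22.9% higher and 42.9% on opposite sides, stood near these backgrounds, so they are not a result about Hox genes. By cluster, the 9 lower genes were 4 of HoxD, 3 of HoxB and 2 of HoxC, with 0 of HoxA. The 8 higher genes were 3 of HoxA, 3 of HoxB and 2 of HoxC, with 0 of HoxD. The median log2 fold change was 0.17 over the 35 Hox genes and -0.06 over all tested genes. The Hox median was -0.56 without Brg1-cKO replicate 1, -0.17 once the replicate number was a block, and -0.21 in limma-voom, so its sign is not settled. The median over all genes of these fits was also lower, at -0.40, -0.31 and -0.31 in the same order.

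The group 11 paralogs, the metanephric Hox genes, all had a positive log2 fold change but differed in how the Brg1-cKO libraries were placed. Hoxa11 (chromosome 6, 52242106 to 52245810, minus strand) was at 34.5 and 33.2 CPM in control and at 37.9 and 66.6 CPM in Brg1-cKO, a log2 fold change of 0.63 (SE 0.38). Hoxc11 (chromosome 15, 102954427 to 102957708, plus strand) was at 14.2 and 14.6 CPM in control and at 87.0 and 14.9 CPM in Brg1-cKO, a log2 fold change of 1.82 (SE 0.94). Hoxd11 (chromosome 2, 74679557 to 74687016, plus strand) was at 115 and 99.0 CPM in control and at 224 and 63.3 CPM in Brg1-cKO, a log2 fold change of 0.43 (SE 0.65). Both Brg1-cKO libraries were above both controls for Hoxa11 and Hoxc11, a placing found for 17.5% of all tested genes. The higher value was in replicate 2 for Hoxa11 and in replicate 1 for Hoxc11, where replicate 2 was just above the controls. Hoxd11 was above both controls in replicate 1 and below them in replicate 2. Their adjusted p in edgeR's quasi-likelihood test was 0.522 for Hoxa11, 0.438 for Hoxc11 and 0.812 for Hoxd11. Summed over the group, the level was 163 and 147 CPM in control and 349 and 145 CPM in Brg1-cKO, so the groups overlapped.

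Of the group 10 paralogs, Hoxa10 and Hoxc10 differed little between the Brg1-cKO libraries and Hoxd10 more. Hoxa10 (chromosome 6, 52231197 to 52240854, minus strand) was at 142 and 129.6 CPM in control and at 154 and 152 CPM in Brg1-cKO, a log2 fold change of 0.17 (SE 0.15). Hoxc10 (chromosome 15, 102966796 to 102971893, plus strand) was at 82.3 and 83.4 CPM in control and at 112 and 94.6 CPM in Brg1-cKO, a log2 fold change of 0.32 (SE 0.19). Hoxd10 (chromosome 2, 74691924 to 74695105, plus strand) was at 58.1 and 61.4 CPM in control and at 51.4 and 26.6 CPM in Brg1-cKO, a log2 fold change of -0.62 (SE 0.41). Thus both Brg1-cKO libraries were above both controls for Hoxa10 and Hoxc10 and below them for Hoxd10, none past the threshold. The group summed to 283 and 274 CPM in control and 317 and 273 CPM in Brg1-cKO.

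The 5' flanks of 3 of these metanephric genes, at each start in the table, are shown so that the start sites behind their counts can be placed. They are the 250 bases before the RefSeq start (GRCm38.p6, 5′ to 3′ on the gene's strand), with each CG dinucleotide in capitals, since Hox promoters are known as CG-rich regions bound by Polycomb. The RefSeq table matched 22 of the 39 genes, with 24 start sites.
Hoxd11, first start, chr2:74679308-74679557, plus strand: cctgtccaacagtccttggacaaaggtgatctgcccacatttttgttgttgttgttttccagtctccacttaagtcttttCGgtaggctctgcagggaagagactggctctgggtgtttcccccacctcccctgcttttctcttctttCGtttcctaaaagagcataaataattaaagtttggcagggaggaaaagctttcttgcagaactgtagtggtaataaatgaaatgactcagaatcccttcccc
Hoxd11, other start, chr2:74682073-74682322, plus strand: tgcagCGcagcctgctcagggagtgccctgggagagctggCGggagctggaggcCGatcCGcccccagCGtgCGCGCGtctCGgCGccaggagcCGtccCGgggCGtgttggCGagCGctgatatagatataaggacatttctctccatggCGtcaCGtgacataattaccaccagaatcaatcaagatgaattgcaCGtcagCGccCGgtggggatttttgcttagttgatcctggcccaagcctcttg
Hoxd10, chr2:74691641-74691890, plus strand: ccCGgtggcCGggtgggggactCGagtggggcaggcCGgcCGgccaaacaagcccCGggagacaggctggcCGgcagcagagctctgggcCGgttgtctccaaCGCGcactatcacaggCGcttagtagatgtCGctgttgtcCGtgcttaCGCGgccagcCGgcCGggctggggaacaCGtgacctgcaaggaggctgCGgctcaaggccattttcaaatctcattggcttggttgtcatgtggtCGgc
Hoxa10, first start, chr6:52240855-52241104, minus strand: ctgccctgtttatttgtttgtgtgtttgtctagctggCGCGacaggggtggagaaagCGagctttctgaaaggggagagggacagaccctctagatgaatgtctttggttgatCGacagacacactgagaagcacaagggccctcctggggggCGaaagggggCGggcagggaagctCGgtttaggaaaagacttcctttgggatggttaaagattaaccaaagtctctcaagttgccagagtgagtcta
Hoxa10, other start, chr6:52234940-52235189, minus strand: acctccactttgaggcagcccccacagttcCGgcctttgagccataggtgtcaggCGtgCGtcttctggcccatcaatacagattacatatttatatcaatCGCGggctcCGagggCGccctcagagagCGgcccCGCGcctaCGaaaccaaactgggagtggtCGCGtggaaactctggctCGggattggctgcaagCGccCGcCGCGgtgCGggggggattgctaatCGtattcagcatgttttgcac
The motif searched was CG, which reads the same on both strands. It occurred 2 times at the first start of Hoxd11 and 7 times at that of Hoxa10. The Hoxd10 window and those of the other start of Hoxd11 and of Hoxa10 held 20 each. Of all 32851 windows of this length in the table, 81.2% held at least 2, 17.9% at least 20 and 46.3% at least 7. The median was 12.5 over the 24 Hox windows and 6.0 over all windows. The count files hold no measurement of these sequences.

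Group 9 held 1 of the genes with the smallest p on each side. Hoxa9 (chromosome 6, 52223100 to 52231089, minus strand) was at 84.5 and 83.2 CPM in control and at 131 and 161 CPM in Brg1-cKO. Its log2 fold change was 0.80 (SE 0.19, unadjusted p = 0.0136, adjusted p = 0.166 in edgeR's quasi-likelihood test). Hoxb9 (chromosome 11, 96271457 to 96276595, plus strand) was at 115 and 118 CPM in control and at 74.6 and 48.1 CPM in Brg1-cKO. These paralogs, which overlap in patterning the thoracic and limb regions, thus stood on opposite sides of control with no overlap between groups. The log2 fold change of Hoxb9 was -0.92 (SE 0.29, unadjusted p = 0.0334, adjusted p = 0.219 in the same test). Hoxd9 was at 53.4 and 55.1 CPM in control and at 21.8 and 35.2 CPM in Brg1-cKO, a log2 fold change of -0.93 (SE 0.36). Hoxc9 was at 39.6 and 40.4 CPM in control and at 11.3 and 34.2 CPM in Brg1-cKO, a log2 fold change of -0.82 (SE 0.64). Hoxb9, Hoxc9 and Hoxd9 were lower in both Brg1-cKO libraries, as were 34.5% of all tested genes. Only Hoxa9 of the 4 genes of the group was higher in both, as were 17.5% of all tested genes. The sum over the group was 292 and 297 CPM in control and 239 and 279 CPM in Brg1-cKO.

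Of the most posterior genes, those of group 13 were scarce in control. Hoxd12 was at 18.9 and 18.7 CPM in control and at 5.80 and 57.3 CPM in Brg1-cKO, a log2 fold change of 0.74 (SE 1.14). Hoxd13 (chromosome 2, 74668310 to 74671599, plus strand) had 62 and 69 reads in control and 0 in both Brg1-cKO libraries, which makes it at least 14.7-fold lower against a floor of 3 reads over the group. The unadjusted p of Hoxd13 in edgeR's quasi-likelihood test was 0.0118, with an adjusted p of 0.166. Hoxa13 had 29 and 7 reads in control and 0 in both Brg1-cKO libraries, and did not pass the filter. Hoxc13 stood alone, with 14 and 0 reads in control, 0 in Brg1-cKO replicate 1 and 558 in replicate 2. Those 558 reads put it at 52.1 CPM in that library, and Hoxc13 did not pass the filter on low counts.

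Of the central genes, Hoxb6 differed most beyond its spread. Hoxb6 (chromosome 11, 96292476 to 96301569, plus strand) was at 88.0 and 93.4 CPM in control and at 161 and 179 CPM in Brg1-cKO. Its log2 fold change of 0.91 (SE 0.16) had the smallest unadjusted p of the Hox genes in edgeR's quasi-likelihood test, 0.00482, with an adjusted p of 0.166. Its groups did not overlap, and the gap between them was wider than the spread within either. Hoxa6 was at 15.4 and 18.8 CPM in control and at 32.7 and 14.9 CPM in Brg1-cKO, a log2 fold change of 0.48 (SE 0.58). Hoxc6 was at 32.9 and 30.1 CPM in control and at 47.4 and 19.4 CPM in Brg1-cKO, a log2 fold change of 0.09 (SE 0.54). For both of these paralogs of Hoxb6, Brg1-cKO replicate 1 was above both controls and replicate 2 below.

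Hoxb7, the ureteric bud gene, was at 23.5 and 29.4 CPM in control and at 98.2 and 27.0 CPM in Brg1-cKO, a log2 fold change of 1.24 (SE 0.71). Hoxa7 was at 35.5 and 41.1 CPM in control and at 24.4 and 113 CPM in Brg1-cKO, a log2 fold change of 0.84 (SE 0.80). Each was thus high in 1 Brg1-cKO library, Hoxb7 in replicate 1 and Hoxa7 in replicate 2. Their sum was 59.0 and 70.5 CPM in control and 123 and 140.2 CPM in Brg1-cKO, above control in both libraries although neither gene was. The 12 ureteric bud markers, of which Hoxb7 is no member, summed to 282 and 277 CPM in control and to 157 and 143 CPM in Brg1-cKO. Of these 12 markers, 7 and 3 were at 0 reads in the Brg1-cKO libraries and 0 in either control. Over all identifiers, 16300 and 18038 had reads in the Brg1-cKO libraries, against 26486 and 27091 in control. Both Brg1-cKO libraries were below both controls for 8 of the markers (34.5% of all tested genes were) and above them for 1 (17.5%). The part of these markers in the Hoxb7 level was not tested.

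Group 8 genes were not above control in sum. Hoxb8 was at 70.6 and 71.0 CPM in control and at 60.0 and 46.9 CPM in Brg1-cKO, a log2 fold change of -0.40 (SE 0.24), and lower in both. Hoxc8 was at 27.6 and 24.3 CPM in control and at 7.13 and 40.1 CPM in Brg1-cKO, a log2 fold change of -0.14 (SE 0.91). Hoxd8 was at 43.5 and 40.0 CPM in control and at 41.3 and 15.9 CPM in Brg1-cKO, a log2 fold change of -0.55 (SE 0.56). The 3 genes together gave 142 and 135 CPM in control and 108 and 103 CPM in Brg1-cKO, with no overlap although Hoxc8 and Hoxd8 each overlapped. In group 5, Hoxa5, a gene of lung and axial patterning, was at 90.0 and 86.9 CPM in control and at 143 and 49.0 CPM in Brg1-cKO, a log2 fold change of 0.12 (SE 0.57). Hoxb5 was at 31.7 and 27.3 CPM in control and at 22.7 and 29.9 CPM in Brg1-cKO, a log2 fold change of -0.17 (SE 0.36). The widest gap of a gene with over 3 reads in each Brg1-cKO library was that of Hoxc5, which had 11.9 and 12.3 CPM in control and 32.9 and 1.12 CPM in Brg1-cKO. These last values differ 29.4-fold between libraries of the same group, and the log2 fold change of Hoxc5 was 0.49 (SE 1.56).

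Group 4 was split in the same way. Hoxb4, a gene used to expand blood stem cells, was at 52.3 and 52.1 CPM in control and at 121 and 58.9 CPM in Brg1-cKO, a log2 fold change of 0.78 (SE 0.42). Hoxc4 was at 68.5 and 71.8 CPM in control and at 36.9 and 48.6 CPM in Brg1-cKO, a log2 fold change of -0.72 (SE 0.26, unadjusted p = 0.0521 in edgeR's quasi-likelihood test). Thus Hoxb4 was higher and Hoxc4 lower in both Brg1-cKO libraries. Hoxa4 was at 8.38 and 9.75 CPM in control and at 29.4 and 4.02 CPM in Brg1-cKO, a log2 fold change of 0.88 (SE 1.12). Hoxd4, at 5.81 and 8.22 CPM in control, was at 0.0699 and 15.3 CPM in Brg1-cKO, the lower value being 1 read.

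Among the anterior genes, which pattern the hindbrain and neck, Hoxb3 stood out. Hoxb3 (chromosome 11, 96323326 to 96347930, plus strand) was at 59.9 and 55.2 CPM in control and at 154 and 112 CPM in Brg1-cKO. Its log2 fold change of 1.21 (SE 0.24, unadjusted p = 0.00782, adjusted p = 0.166 in edgeR's quasi-likelihood test) came with no overlap between groups. The antisense gene Hoxb3os overlaps it and was at 3.77 and 6.92 CPM in control and at 0.978 and 5.14 CPM in Brg1-cKO. The other group 3 genes did not follow. Hoxa3 was at 33.5 and 33.3 CPM in control and at 38.4 and 19.7 CPM in Brg1-cKO, a log2 fold change of -0.20 (SE 0.45). Hoxd3 was at 6.06 and 6.90 CPM in control and at 1.89 and 0 CPM in Brg1-cKO, lower in both.

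Hoxb2 was at 16.9 and 17.0 CPM in control and at 39.8 and 10.5 CPM in Brg1-cKO, a log2 fold change of 0.57 (SE 0.77). Hoxa2, which patterns the second branchial arch, was at 14.6 and 12.0 CPM in control and at 16.8 and 3.46 CPM in Brg1-cKO, a log2 fold change of -0.39 (SE 0.99). Both were above control in Brg1-cKO replicate 1 and below it in replicate 2. In group 1, Hoxd1 had 69 and 33 reads in control, 77 in Brg1-cKO replicate 1 and 0 in replicate 2. Hoxb1 had 110 and 93 reads in control and 0 and 2 in Brg1-cKO, lower in both (edgeR's quasi-likelihood test, unadjusted p = 0.0625).

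**Figure D3:**
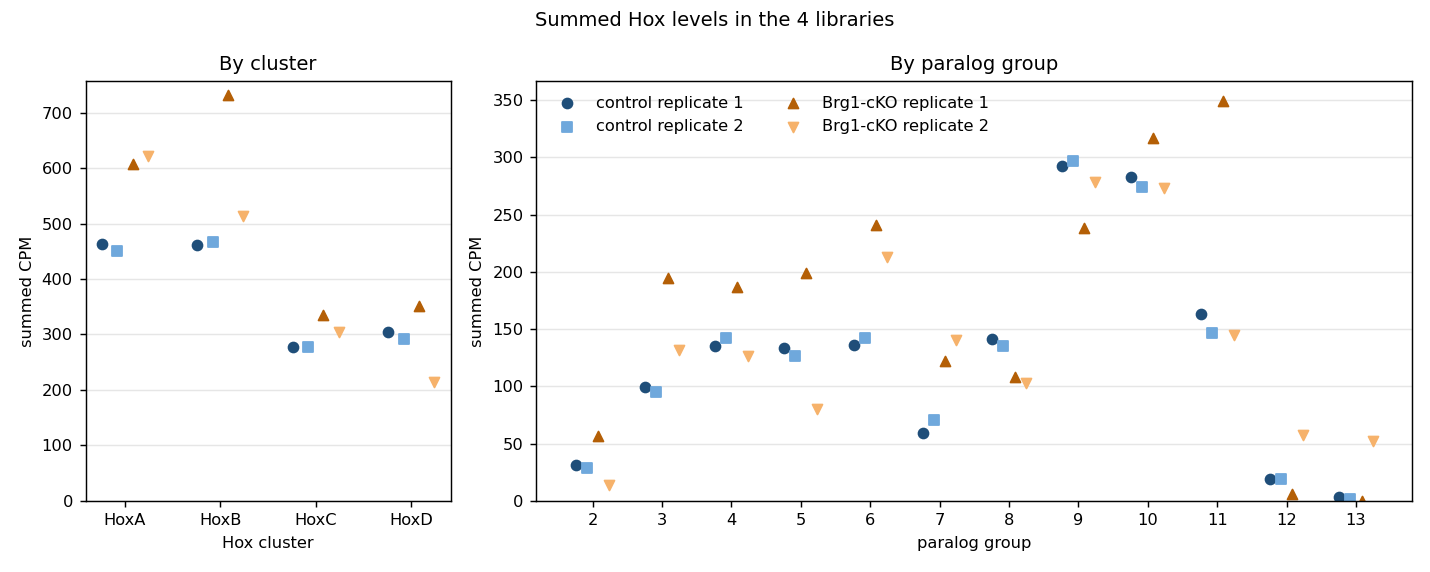
Summed CPM of the genes of each Hox cluster (left) and of paralog groups 2 to 13 (right) in the 4 libraries, 1 point per library, linear axis from 0. Both Brg1-cKO points lie above both controls for HoxA, HoxB and HoxC and for groups 3, 6 and 7, and below them for groups 8 and 9. For HoxC the replicate 2 point does so only with Hoxc13 counted.

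Summed over clusters, HoxA was at 463 and 451 CPM in control and at 608 and 622 CPM in Brg1-cKO, a log2 ratio of 0.43. HoxB was at 461 and 466 CPM in control and at 731 and 513 CPM in Brg1-cKO, a log2 ratio of 0.42. HoxC was at 277 and 277 CPM in control and at 334 and 305 CPM in Brg1-cKO, a log2 ratio of 0.21. In these 3 clusters both Brg1-cKO libraries were above both controls, in HoxC only with Hoxc13 counted. HoxD was at 304 and 292 CPM in control and at 352 and 214 CPM in Brg1-cKO, a log2 ratio of -0.08, and its groups overlapped. The exact two-sided permutation p was 0.333 for HoxA, HoxB and HoxC, the smallest that 2 against 2 libraries allow, so no cluster could pass. Without Brg1-cKO replicate 1 the log2 ratio was 0.15 for HoxB, 0.14 for HoxC and -0.48 for HoxD, and without replicate 2 it was 0.66 for HoxB and 0.24 for HoxD. In HoxC, 52.1 of the 305 CPM of Brg1-cKO replicate 2 were Hoxc13, and without that gene this library would lie below both controls. All Hox genes together gave 1505 and 1486 CPM in control and 2025 and 1654 CPM in Brg1-cKO.

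The Hox values were far more spread within the Brg1-cKO group than within control. Between the 2 Brg1-cKO libraries the median difference of a tested Hox gene was 1.24 on the scale of log2(CPM + 1), and 20 of 35 differed by more than 2-fold. Between the controls the median was 0.08, and 0 of 35 differed by more than 2-fold. Over all tested genes the same medians were 0.75 in Brg1-cKO, with 41.0% of genes over 2-fold, and 0.14 in control. At 10 CPM or more, up to the level of the highest Hox gene, 17 of 30 Hox genes and 39.7% of 8637 genes differed by more than 2-fold between the Brg1-cKO libraries. Of the 15 Hox genes with the Brg1-cKO libraries on opposite sides, 10 were high in replicate 1 (Hoxa2, Hoxa3, Hoxa4, Hoxa5, Hoxa6, Hoxb2, Hoxc5, Hoxc6, Hoxd1 and Hoxd11) and 5 in replicate 2 (among them Hoxa7, Hoxc8, Hoxd4 and Hoxd12). The median log2 ratio of the 35 genes to the control mean was 0.18 in Brg1-cKO replicate 1 and -0.52 in replicate 2 on the same scale. Neighbours on the chromosome could go apart within a library. In Brg1-cKO replicate 1, Hoxd11 was above control while Hoxd12 and Hoxd10 on either side of it were below, and in replicate 2 this order was turned for Hoxd11 and Hoxd12.

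**Figure D4:**
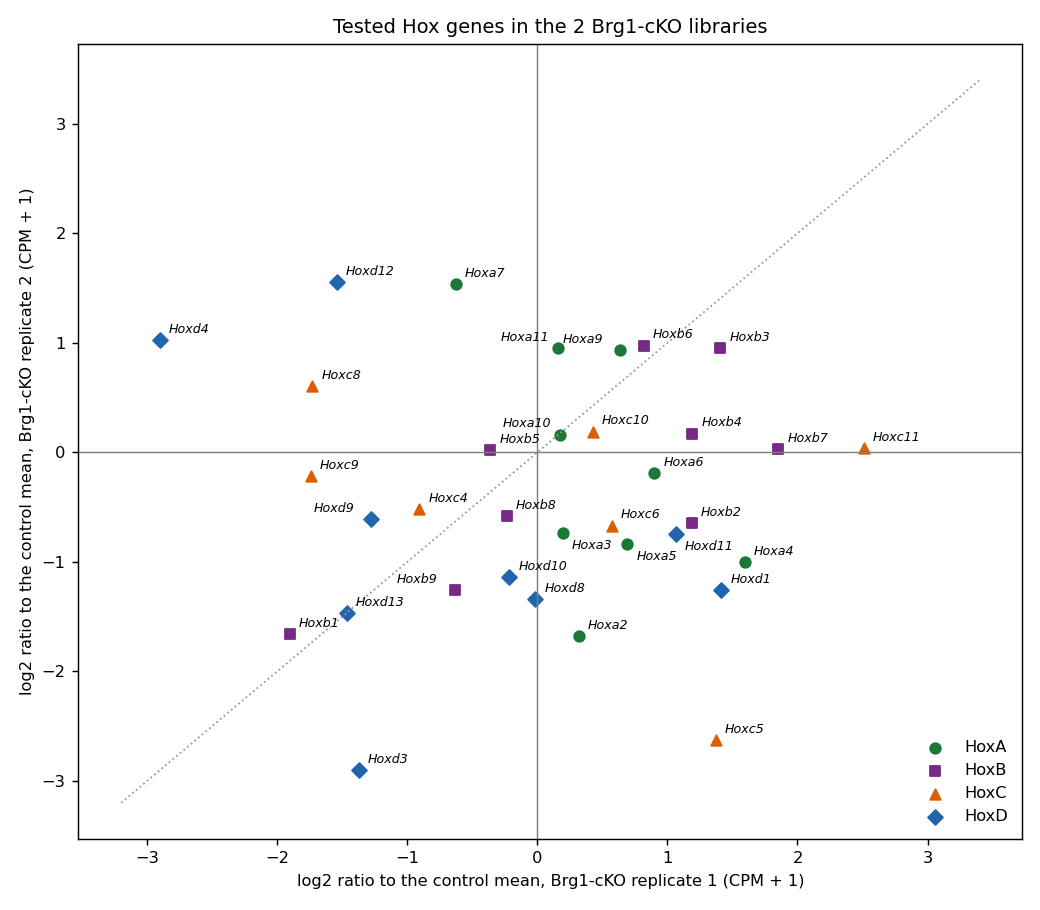
Tested Hox genes by their log2 ratio to the control mean, on the scale of CPM + 1, in Brg1-cKO replicate 1 (horizontal) and replicate 2 (vertical), with 1 marker shape per cluster and equal ratios on the dotted line. Hoxb3, Hoxb6 and Hoxa9 lie at the upper right near that line, and Hoxd4, Hoxd12 and Hoxc5 lie far from it.

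Detection of Hox genes was lower in the Brg1-cKO libraries. Of the 39 genes, the controls had 2 and 3 at 0 reads, and the Brg1-cKO libraries 7 and 6. With all libraries thinned to 10922272 counts, 36.5 ± 0.707 Hox genes (SD, n = 2) had at least 1 read in control and 32.5 ± 0.707 in Brg1-cKO. Over all identifiers the mean number detected at that depth was 24275 in control and 17057 in Brg1-cKO, or 29.7% fewer, a larger relative gap than that of the Hox genes. A pattern chosen after the values were seen, of 3 reads or fewer in 1 Brg1-cKO library and a level above both controls in the other, held for 4 Hox genes, among them Hoxc13, Hoxd1 and Hoxd4. Of these, 3 were tested, or 8.57% of the tested Hox genes, against 11.3% of all tested genes.

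Among noncoding genes of the clusters, 1 of the tested genes was above both controls in both Brg1-cKO libraries and 3 were below. Over all tested genes these shares were 17.5% and 34.5%. Of 13 listed, 11 were in the files and 9 were tested, with 0 past the adjusted threshold and 2 lower at an unadjusted p under 0.05 in edgeR's quasi-likelihood test, where 12.9% of all tested genes were. These were Hoxd3os1 and Halr1. Hoxd3os1, antisense to Hoxd3 and Hoxd4, had 195 and 183 reads in control and 0 in both Brg1-cKO libraries. Halr1, a noncoding gene of the HoxA region, had 46 and 26 reads in control and 0 and 1 in Brg1-cKO. Hoxaas2, antisense and overlapping an end of Hoxa3, did not pass (unadjusted p = 0.0529 in the same test) and had 303 and 279 reads in control and 0 and 3 in Brg1-cKO. Hoxa11os, antisense to Hoxa11, was at 12.7 and 14.5 CPM in control and at 20.3 and 17.8 CPM in Brg1-cKO. It was thus above control in both libraries, as was Hoxa11. The counts do not say whether strand was used, so the reads of such pairs cannot be told apart.

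Most cofactors of Hox proteins were below control in both Brg1-cKO libraries. They are homeodomain proteins of the TALE class, such as the Meis family, which bind DNA beside Hox proteins. Of the 9 genes, all tested, 6 were below both controls in both libraries (34.5% of all tested genes were) and 0 above (17.5%). Their median log2 fold change was -0.41. In edgeR's quasi-likelihood test 3 were lower at an unadjusted p under 0.05, where 12.9% of all tested genes were. Meis1, strong in the renal stroma, was at 178 and 169 CPM in control and at 66.6 and 69.9 CPM in Brg1-cKO, a log2 fold change of -1.35 (SE 0.16). For Meis2 it was -0.41 (SE 0.10). None passed over all genes. The 12 stromal markers summed to 2808 and 2779 CPM in control and to 1405 and 1241 CPM in Brg1-cKO. Of these 12 markers, 11 were below both controls in both Brg1-cKO libraries (34.5% of all tested genes were). In each Brg1-cKO library 1 of the stromal markers was at 0 reads. Their part in the cofactor levels was not tested.

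The genes that act with or under the group 11 proteins in the metanephros gave 0 calls past the adjusted threshold. Of the 8 tested, 4 were above both controls in both Brg1-cKO libraries (17.5% of all tested genes were) and 1 below (34.5%). Their median log2 fold change was 0.14. Some members not named here differed more between the Brg1-cKO libraries than those named below. In edgeR's quasi-likelihood test 1 was higher at an unadjusted p under 0.05, where 5.44% of all tested genes were. That gene was Sall1, a zinc finger factor of the progenitors, with a log2 fold change of 0.30 (SE 0.09). Gdnf, the branching signal, was at 119 and 134 CPM in control and at 127 and 135 CPM in Brg1-cKO. Pax2 was at 598 and 595 CPM in control and at 675 and 667 CPM in Brg1-cKO. For Itga8, the integrin that maintains Gdnf, the log2 fold change came to 0.11 (SE 0.14).

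The listed regulators of Hox expression also gave 0 calls. Of 16 listed, 12 were tested, with 4 above both controls in both Brg1-cKO libraries (17.5% of all tested genes were) and 4 below (34.5%). The median log2 fold change was -0.03. Kmt2a, the Trithorax-type methyltransferase that maintains Hox genes, was at 307 and 299 CPM in control and at 251 and 278 CPM in Brg1-cKO. Suz12, a subunit of Polycomb repressive complex, was at 157 and 136 CPM in control and at 116 and 92.5 CPM in Brg1-cKO. Both are among the 4 genes below control and do not stand for the list. The 4 genes above control, not named here, include other Polycomb subunits. Men1 and Cdx4 were listed at 0 in every library. Men1 is a widely used gene, so its 0 can be a failure of counting and is not read as lack of expression. Among genes that flank the clusters, 0 of 7 tested members were above both controls (17.5% of all tested genes were) and 1 below (34.5%). Their median log2 fold change was -0.16. Of these flanking genes, Evx1, Evx2 and Ttll6 were listed at 0 in every library.

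Marker sums of the other cell types shifted between the groups beside these Hox values. Podocyte markers summed to 646 and 645 CPM in control and to 2845 and 2647 CPM in Brg1-cKO, and early nephron markers to 1359 and 1358 against 2368 and 2233 CPM. Both Brg1-cKO libraries were above both controls for 9 of 10 podocyte markers (17.5% of all tested genes were) and below for 0 (34.5%). Of the 9 tested early nephron markers, 7 were above in this way and 2 below. Nephron progenitor markers gave 1518 CPM in both controls and 2126 and 1939 CPM in Brg1-cKO, but did not rise as a set. Of the 11, 4 were above both controls in both Brg1-cKO libraries (17.5% of all tested genes were) and 2 below (34.5%). Their median log2 fold change was 0.11. Endothelial markers were at 722 and 733 CPM in control and at 394 and 257 CPM in Brg1-cKO, and immune markers at 177 and 175 against 72.0 and 63.5 CPM. The part of cell composition in the Hox levels was not tested.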

How the data were processed

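RNA-seq counts of 2 control and 2 Brg1-cKO libraries were used. Per the labels' protocols, mRNA was purified with beads from total RNA of 3000 sorted cells, and strand-specific libraries made by random priming were read single-end at 75 bases. The deposited values are raw counts, whole numbers of reads per Ensembl gene. Per the submitters' processing notes, mm10, TopHat and DESeq2 were used; for the counting tool, strand setting and annotation, nothing was given in the sources used here. Reads given to no gene (31.8% to 72.1% of reads per library) were left out of library sizes.

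Symbols were matched for 52403 of 52636 identifiers, and positions and exon lengths were taken from GENCODE M21 on the same build. The fit used edgeR 4.0.16 in R 4.3.3 with TMM scaling, the default filter (minimum count 10), robust dispersions, the quasi-likelihood F test with group as its only term, and Benjamini-Hochberg adjustment at 0.05 over all 18172 genes. It was tested on simulated data with the same dispersion in both groups, which does not cover the wider spread of the Brg1-cKO libraries. CPM use TMM-scaled library sizes, and standard errors are the log2 fold change over the root of F. The rule for named genes took every tested Hox gene at 10 CPM or more in the mean of the 4 libraries and groups 10 and 11, and from other lists up to 4 genes with the smallest p; some others were named after their values were seen. The members and lists were chosen with earlier results of these data known. Some genes are not reported here. Floors cover counting error only. Alternatives were DESeq2 1.42.0 on the same genes, limma 3.58.1, other scalings and filters, thinning, a replicate block and leaving out each library. DESeq2 gave an adjusted p for 16058 genes, and its shares are of these.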

Additional observations from a re-analysis of the deposited data

Results flagged for a closer look

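Reads that aligned uniquely but fell outside counted genes, which enter none of the Hox values, made up 49.5% and 57.2% of uniquely aligned reads in Brg1-cKO replicates 1 and 2, against 15.9% ± 0.775 (SD, n = 2) in control. They were picked out because the level in both Brg1-cKO libraries was above that in the control samples.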

How the results depend on the processing

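The calls rest on the spread between 2 Brg1-cKO libraries. Among Hox genes, 0 passed the adjusted threshold in edgeR's quasi-likelihood test, with limma-voom and with the replicate block; DESeq2 gave 3 and the likelihood ratio test 4. Leaving out 1 library gave 0 to 28, and without either Brg1-cKO library 12315 and 13262 genes were called over all, the lone library being assumed to vary like the controls. Unadjusted calls ran from 1 to 15 higher and from 0 to 18 lower with 1 library left out; the lower count of 2 became 1 with DESeq2, a 10 CPM filter or the replicate block, and 4 with limma-voom. The median log2 fold change of 0.17 ran from -0.56, without Brg1-cKO replicate 1, to 0.30, and with all 4 libraries was -0.17 under the replicate block and -0.21 in limma-voom. The HoxA log2 ratio was 0.48 with DESeq2's size factors and 0.39 with total counts. With 1 library left out the log2 ratio ran from 0.41 to 0.45 for HoxA, from 0.15 to 0.66 for HoxB, from 0.14 to 0.27 for HoxC and from -0.48 to 0.24 for HoxD. The HoxC range includes Hoxc13, without which Brg1-cKO replicate 2 would lie below both controls.

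Same-numbered libraries did not deviate together (r = -0.017 over 18172 genes). Given the wide spread between the Brg1-cKO libraries, this cannot exclude that the numbers pair them. With the replicate block the log2 fold change turned negative for Hoxa5 (-0.073), Hoxc5 (-0.94), Hoxc6 (-0.051) and Hoxd12 (-0.032). With limma-voom it was -0.68 and -0.27 for Hoxc5 and Hoxd12, and with a variance per group, added after seeing the data, -0.70 and -0.28. Leaving out 1 library turned 12 of 30 genes: Hoxa2 ran from -1.97 to 0.32, Hoxa3 from -0.79 to 0.18, Hoxa4 from -1.20 to 1.68, Hoxa5 from -0.88 to 0.68, Hoxa6 from -0.23 to 0.92, Hoxa7 from -0.67 to 1.54, Hoxb2 from -0.72 to 1.21, Hoxc5 from -3.46 to 1.42, Hoxc6 from -0.72 to 0.57, Hoxc8 from -1.88 to 0.60, Hoxd11 from -0.78 to 1.05 and Hoxd12 from -1.72 to 1.58. The cause of the other changes was not tested.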
